A study of Mus musculus with 21 samples.

Results

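Trpm5 and 6 further transient receptor potential (TRP) channel genes (Trpm2, Trpm3, Trpm4, Trpm7, Trpc1 and Trpv4) were followed in mouse pancreatic islets after a regular diet (RD), after a high-fat diet (HFD) and after the same high-fat diet mixed with O304 (HFD-O304). These 7 genes were taken by name, out of 55536 genes counted. The list was drawn up with results of these samples known, and Trpm5 was selected on its difference in expression between the diets, so that the diet values of the members are a description and carry no test. O304 is a small molecule that activates AMPK, the kinase by which cells sense their energy state, and each g of its diet held 0.8 mg of it. All mice were CBA males, which began their diet at 10 weeks of age and gave islets at 20 weeks. The study's text gives 10 weeks of diet in its results and 9 in its methods. Each of the 7 RNA samples of a group came from 150 islets out of a pool of 5 mice, so that the spread between samples is one between pools. In whole islets, fewer cells of a type and less RNA per cell cannot be told apart.

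TRP channels are cation channels of the plasma membrane and, for some families, of organelles. Beta cells depolarize when ATP closes their potassium channels, and the inward current that carries the membrane to the threshold for calcium entry comes in part from TRP channels. Trpm5 and its close relative Trpm4 are opened by calcium inside the cell, pass sodium and potassium but hardly any calcium, and Trpm5 is best known as the last step of sweet, bitter and umami taste transduction. Trpm2 is a calcium-permeable channel opened by ADP-ribose, Trpm3 is opened by pregnenolone sulfate and heat, Trpm7 joins a magnesium- and calcium-permeable pore to a protein kinase, Trpc1 forms channels with other TRPC subunits and is tied to refilling of calcium stores, and Trpv4 responds to cell swelling and warmth.

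Read pairs on genes ranged from 13809266 to 48922569 per sample, and HFD-O304 replicate 2 was the shallowest sample. Library numbers form 1 unbroken run, whose first 12 (replicates 1 to 4) are ordered diet by diet and whose last 9 (replicates 5 to 7) follow in turns of RD, HFD and HFD-O304. Because of this change in order these stretches are called library sets here, although no label calls them batches. The labels of HFD-O304 replicate 1 conflict, its diet tag reading HFD, and it was placed by its title. Without it, the log2 fold change of Trpm5 was 2.39 in HFD-O304 vs HFD islets, and with all samples it was 2.40. The islet label was met by the markers of islet cells: the summed normalized count of 10 beta cell markers ranged from 9431164 to 13800998 per sample. Normalized counts are read pairs divided by a size factor that corrects for the depth of each sample.

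The upstream sequences of Trpm5 and Trpm7 are shown because, of the 6 members with an entry, they held the fewest and the most CG dinucleotides. Each is the stretch of 250 bases before the RefSeq start (build GRCm38.p6), written 5′ to 3′ on the strand of the gene, with CG dinucleotides, the bases that DNA methylation acts on in mammals, in capitals. Trpm5 reads from chr7:143094643-143094892 and Trpm7 from chr2:126876262-126876511, both on the minus strand.
Trpm5: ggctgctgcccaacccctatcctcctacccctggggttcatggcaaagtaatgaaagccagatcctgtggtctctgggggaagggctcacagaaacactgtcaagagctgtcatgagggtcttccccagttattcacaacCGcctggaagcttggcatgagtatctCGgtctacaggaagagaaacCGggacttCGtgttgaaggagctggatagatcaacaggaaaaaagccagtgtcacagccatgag
Trpm7: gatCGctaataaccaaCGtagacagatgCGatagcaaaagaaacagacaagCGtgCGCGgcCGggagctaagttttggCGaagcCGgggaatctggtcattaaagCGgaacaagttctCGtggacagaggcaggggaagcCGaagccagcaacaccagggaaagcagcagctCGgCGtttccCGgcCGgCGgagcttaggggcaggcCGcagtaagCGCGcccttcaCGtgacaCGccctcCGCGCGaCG
The Trpm5 window held 4 CG dinucleotides and that of Trpm7 held 26, where the median of 32851 windows of the same length was 6. As few as 4 were found in 44.4% of windows and 26 or fewer in 91.4%. The GC content was 52.8% for Trpm5 and 60.4% for Trpm7. The letters CACGTG, the E-box bound by many basic helix-loop-helix factors (a palindrome, so that both strands are read at once), occurred once in the Trpm7 window, in none of the windows of Trpm5, Trpm2, Trpm3, Trpc1 and Trpv4, and in 6.02% of all windows. The windows of Trpm2, Trpc1 and Trpv4 held 10, 17 and 22 CG dinucleotides, and those of the 2 starts of Trpm3 held 17 and 9. Trpm4 is named only.

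Trpm5 transcripts were lower in HFD islets and higher in HFD-O304 islets than in RD islets. The gene (ENSMUSG00000009246) lies on the minus strand at chr7:143069153-143094642 (GRCm38). RD islets held from 1620 to 2574 normalized counts, with a median of 1899.9. HFD islets held from 479 to 1408, with a median of 732. HFD-O304 islets held from 4023 to 5746, with a median of 4532. No HFD sample reached the lowest RD sample, and no HFD-O304 sample came down to the highest RD sample, so that none of the 3 groups overlapped with another. Means with SD over 7 samples were 2045 ± 362 (RD), 904 ± 327 (HFD) and 4785 ± 579 (HFD-O304). On the log2 scale the difference was -1.18 (standard error 0.16) for HFD vs RD, 1.23 (standard error 0.16) for HFD-O304 vs RD and 2.40 (standard error 0.17) for HFD-O304 vs HFD islets. HFD-O304 islets thus held 5.29 times the mean of HFD islets and 2.34 times that of RD islets. In read pairs, the precision behind these values ran from 338 in the lowest HFD sample to 7499 in the highest HFD-O304 sample. Comparisons share samples: the RD islets enter 2 of them, and so do the others.

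**Figure D1:**
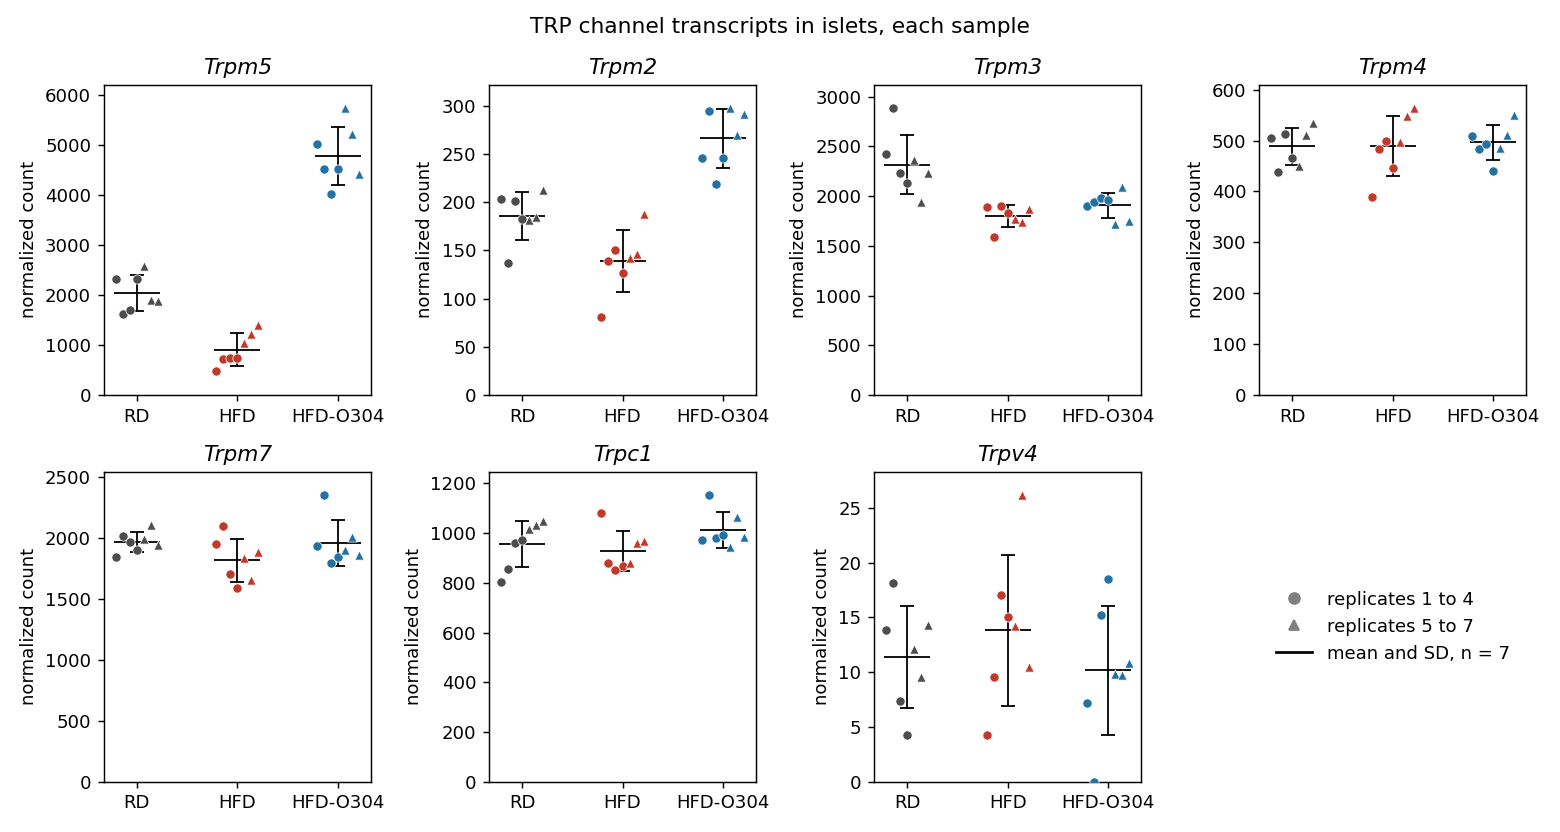
Normalized counts (linear axis from 0) of the 7 TRP channel genes in each RD, HFD and HFD-O304 sample, circles for replicates 1 to 4 and triangles for replicates 5 to 7, with bars for the mean and SD of 7 samples. The 3 groups separate for Trpm5, HFD-O304 samples lie above the rest for Trpm2, and Trpm4, Trpm7, Trpc1 and Trpv4 overlap.

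Trpm2 had the pattern nearest to that of Trpm5 among the members, at a lower level. It lies on the minus strand of chromosome 10 at chr10:77907722-77970563, and it held from 137 to 213 normalized counts in RD islets with a median of 185. HFD islets held from 80.8 to 188 with a median of 142. HFD-O304 islets held from 219 to 298 with a median of 270. All HFD-O304 samples lay above all RD and HFD samples, while HFD and RD samples overlapped, 2 HFD samples lying below the lowest RD sample. The log2 fold change was -0.42 (standard error 0.13) for HFD vs RD, 0.51 (standard error 0.12) for HFD-O304 vs RD and 0.93 (standard error 0.13) for HFD-O304 vs HFD islets. Annotated exons of Trpm2 overlap 2 small nucleolar RNA genes on the same strand, and read pairs shared with them are not counted.

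Trpm3 was lower in both HFD groups than in RD islets at the median. This gene (chr19:22139046-22995410, plus strand) is the longest of the 7 and hosts the microRNA gene Mir204 in its introns. RD islets held from 1939 to 2888 normalized counts with a median of 2234, HFD islets from 1593 to 1900.2 with a median of 1829, and HFD-O304 islets from 1717 to 2091 with a median of 1938. Every HFD sample lay below every RD sample. Of the HFD-O304 samples, 4 lay below all RD samples and 5 above all HFD samples. The log2 fold change was -0.37 (standard error 0.07) for HFD vs RD, -0.28 (standard error 0.07) for HFD-O304 vs RD and 0.09 (standard error 0.07) for HFD-O304 vs HFD islets. Trpm5 and Trpm2 were therefore above RD in HFD-O304 islets, whereas Trpm3 was below.

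The remaining 4 members had overlapping groups in every comparison. Trpm4, the calcium-activated relative of Trpm5 (chr7:45302632-45333780, minus strand), held a median of 505 normalized counts in RD islets (from 438 to 535), 498 in HFD islets (from 390 to 564) and 494 in HFD-O304 islets (from 440 to 551). In the order HFD vs RD, HFD-O304 vs RD, HFD-O304 vs HFD, its log2 fold changes were 0.00, 0.03 and 0.02, each with a standard error of 0.08. Trpm4 thus stayed within 0.03 of 0 while Trpm5, with the same mode of opening, ran from -1.18 to 2.40.

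Trpm7 (chr2:126791565-126876230, minus strand) held a median of 1968 normalized counts in RD islets (from 1843 to 2108), 1835 in HFD islets (from 1592 to 2099) and 1898 in HFD-O304 islets (from 1792 to 2356). Trpc1 (chr9:95705082-95750375, minus strand) held a median of 972 in RD islets (from 805 to 1047), 881 in HFD islets (from 852 to 1080) and 984 in HFD-O304 islets (from 944 to 1155). The log2 fold changes of Trpm7 ran from -0.12 to 0.11 and those of Trpc1 from -0.05 to 0.13, with standard errors of 0.06.

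Trpv4 (chr5:114622152-114658421, minus strand) was close to the limit of detection. It held from 4.27 to 18.2 normalized counts in RD islets with a median of 12.1, from 4.25 to 26.2 in HFD islets with a median of 14.2, and from 0 to 18.5 in HFD-O304 islets with a median of 9.79. No sample had more than 24 read pairs. The sample without a read pair was HFD-O304 replicate 2, where a count of 0 allows up to 3 read pairs or 7.84 normalized counts, counting error only. With standard errors of 0.36 to 0.37 on the log2 scale, a change of Trpv4 between diets was not detectable at this depth unless it was large.

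In counts of members, 2 of 7 passed an adjusted p of 0.01 for HFD vs RD (Trpm5 and Trpm3, both lower), 1 for HFD-O304 vs RD (Trpm5, higher) and 2 for HFD-O304 vs HFD (Trpm5 and Trpm2, both higher). Over all 27229 genes tested by edgeR, 3.54% passed for HFD vs RD (2.00% higher and 1.54% lower), 1.31% for HFD-O304 vs RD (0.404% higher and 0.903% lower) and 11.9% for HFD-O304 vs HFD (5.08% higher and 6.79% lower). Groups without overlap were seen for 2 members in each comparison, against 1.35%, 1.56% and 6.17% of all genes in the same order. The members were chosen with these contrasts known, and nothing is read from their counts.

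**Figure D2:**
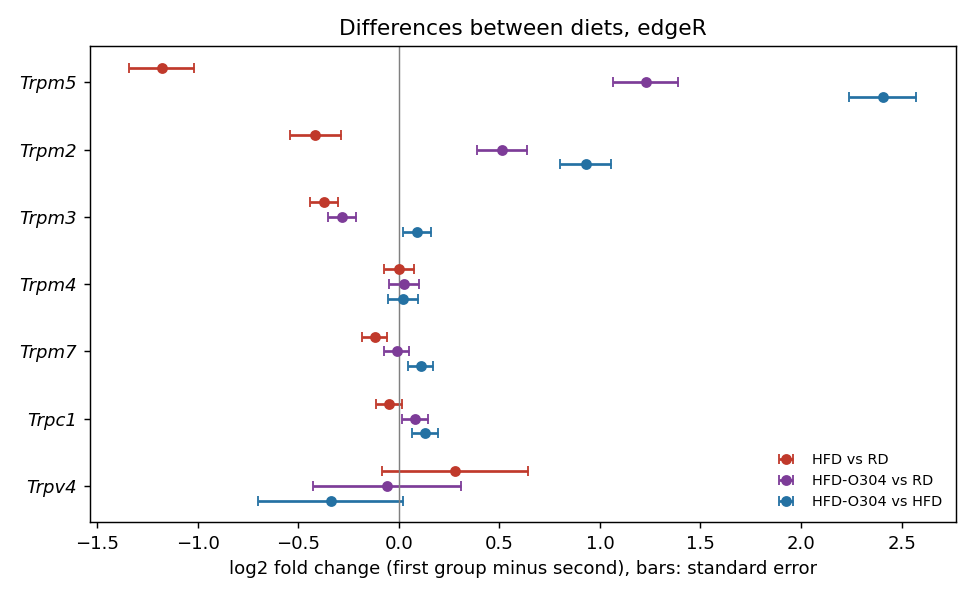
Log2 fold changes of the 7 members (points) with their standard errors (bars) in the 3 comparisons, from the edgeR fit of all 21 samples. Trpm5 spans from -1.18 to 2.40, Trpm2 from -0.42 to 0.93, Trpm3 is at or below 0 except for 0.09 in HFD-O304 vs HFD islets, and Trpv4 has the widest bars.

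Levels between genes were compared as normalized counts per kb, dividing by the length of all annotated exons joined. In RD islets Trpm5 was the most abundant member at 320 ± 56.5 per kb, followed by Trpm7 at 174 ± 7.48, Trpc1 between 100.3 and 130.4 with an SD of 11.5, Trpm3 at 94.8 ± 12.2, Trpm4 at 45.1 ± 3.35, Trpm2 at 15.0 ± 2.00 and Trpv4 at 2.79 ± 1.15 (mean ± SD per kb, n = 7). Of neighbours in this order, only Trpc1 and Trpm3 (from 79.3 to 118.2 per kb) overlapped between their samples. In HFD islets Trpm7 stood at the head with 161 ± 15.8 per kb. Trpm5 at 141 ± 51.2 overlapped with it, with Trpc1 at 115.4 ± 10.1 and with Trpm3 at 73.6 ± 4.54. In HFD-O304 islets Trpm5 reached 748 ± 90.5 per kb, from 629 to 898, where Trpm7 held from 158 to 208. Trpm5 made up a median of 39.3% of the summed per kb level of the 7 members in RD islets (from 35.6 to 46.7%), 23.2% in HFD islets (from 14.9 to 33.7%) and 62.1% in HFD-O304 islets (from 58.6 to 67.8%). These shares did not overlap between groups. Dividing by the longest transcript in place of all exons gave medians of 35.8%, 20.5% and 58.5%. It raised the mean per kb in RD islets to 496 for Trpm5, 277 for Trpm7, 209.6 for Trpc1, 188 for Trpm3, 113.2 for Trpm4, 25.6 for Trpm2 and 3.52 for Trpv4, which left their order as it was.

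**Figure D3:**
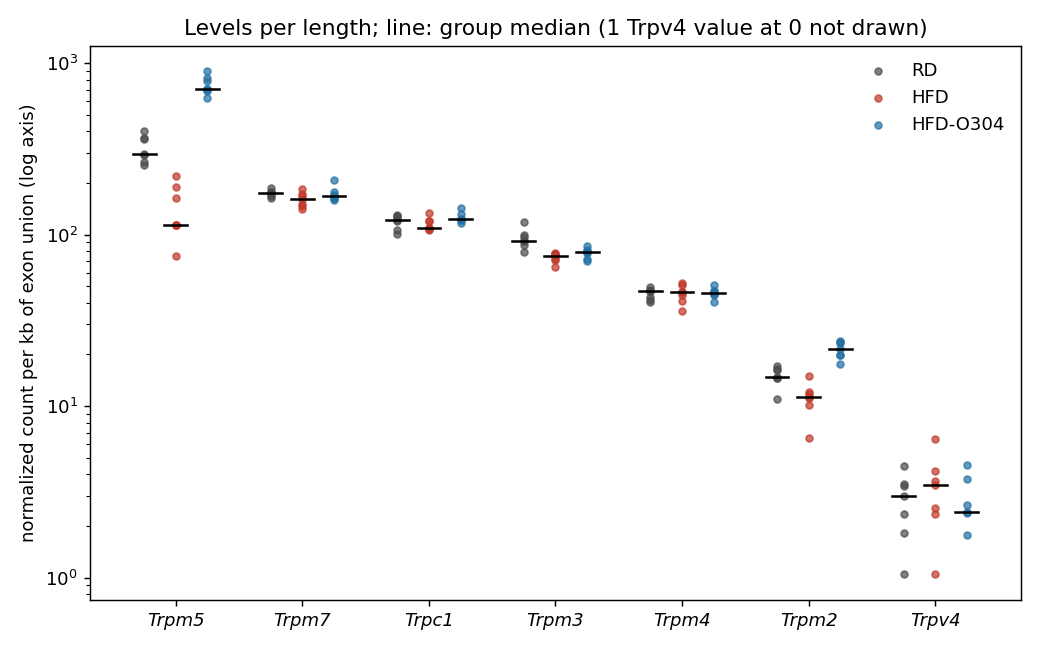
Normalized counts per kb of joined exons (log axis) of the 7 members, with a point for each sample and a line at the median of each group of 7. Trpm5 lies at 253 to 402 in RD, 74.8 to 220 in HFD and 629 to 898 in HFD-O304 islets, and a Trpv4 value of 0 in an HFD-O304 sample cannot be drawn.

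How the members varied together was next described within each group, which leaves out the differences between diets. After the mean of each diet was subtracted from log2(normalized count + 1), Trpm5 had a Pearson r of 0.71 with Trpm2 and 0.59 with Trpm4 over the 21 samples, and of -0.15, -0.16, -0.09 and 0.19 with Trpm3, Trpm7, Trpc1 and Trpv4. On ranks the values were lower, with a Spearman's rho of 0.38 for Trpm2 and 0.30 for Trpm4. HFD samples weigh most in these r, since the log2 SD of Trpm5 was 0.53 in HFD, 0.25 in RD and 0.17 in HFD-O304 islets. HFD replicate 1 was the lowest HFD sample for Trpm5, Trpm2 and Trpm4. Trpm2 and Trpm4 had an r of 0.81 with each other. Without subtraction the r of Trpm5 was 0.92 with Trpm2 and 0.26 with Trpm4. Depth and library set differed between samples, and with the mean of each diet and library set subtracted r was 0.62 for Trpm2 and 0.24 for Trpm4.

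**Figure D4:**
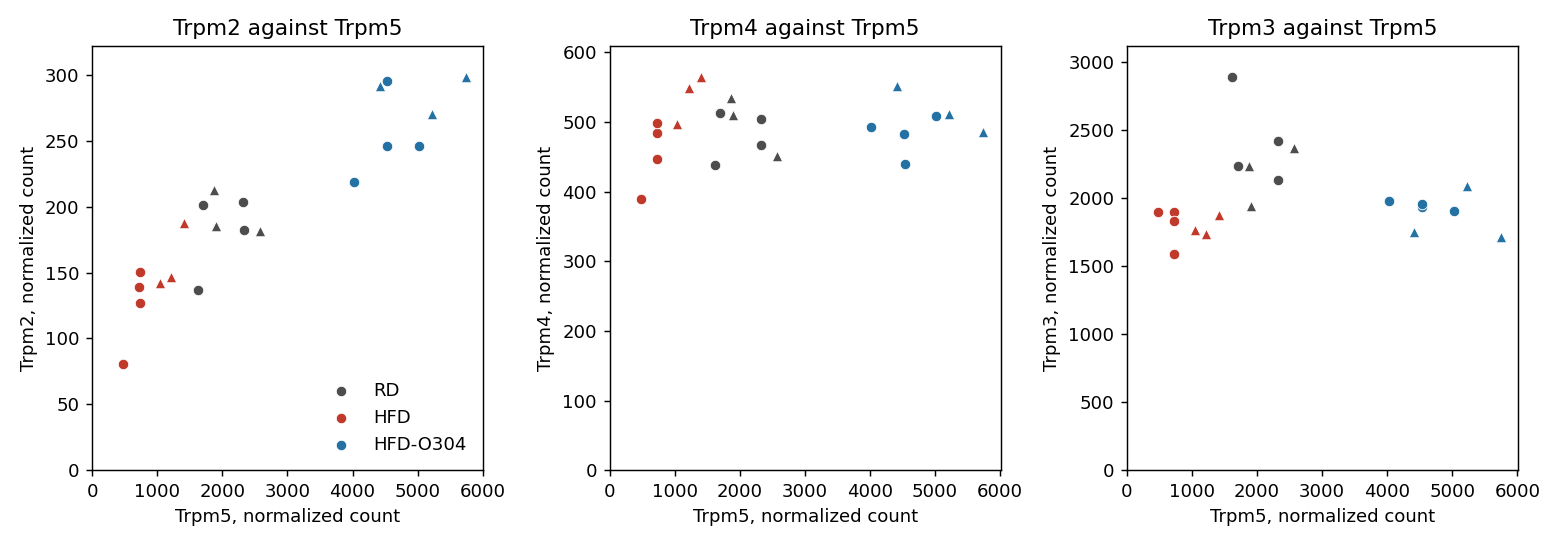
Normalized counts of Trpm2, Trpm4 and Trpm3 (vertical axes from 0) against those of Trpm5 (horizontal axes from 0), 1 point per sample, circles for replicates 1 to 4 and triangles for replicates 5 to 7. Trpm2 rises with Trpm5 over the 3 groups (pooled r of 0.92), while Trpm4 (0.26) and Trpm3 (0.14) do not follow it from group to group.

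The spread of Trpm5 within HFD islets followed the library set. Replicates 1 to 4 of HFD held from 479 to 732 normalized counts and replicates 5 to 7 from 1040 to 1408, without overlap. In RD islets the series overlapped, with 1620 to 2325 in replicates 1 to 4 and 1874 to 2574 in replicates 5 to 7, and so they did in HFD-O304 islets, with 4023 to 5023 and 4419 to 5746. Trpm2 had its lowest HFD value, 80.8, and Trpm4 its lowest, 390, in the sample in which Trpm5 was lowest, HFD replicate 1. Over the 3 diets, Trpm5 was higher in replicates 5 to 7 by 0.38 on the log2 scale (standard error 0.11, unadjusted p = 0.00189, edgeR adjusted p = 0.0312), which missed the threshold of 0.01. DESeq2 gave 0.38 with an adjusted p of 0.00716, past the threshold. Trpm2 differed by 0.21 (standard error 0.09, adjusted p = 0.188) and Trpm4 by 0.13 (standard error 0.06, adjusted p = 0.169). By edgeR, 0 of the 7 members passed an adjusted p of 0.01, where 2.82% of all genes did. Under an unadjusted p of 0.05 were 3 members, and 5866 of the 27229 genes tested. By DESeq2 1 member passed the adjusted threshold, and 1728 of all genes.

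The HFD vs RD difference of Trpm5 was accordingly unequal in the library set. It was -1.58 (standard error 0.14) on the log2 scale within replicates 1 to 4 and -0.79 (standard error 0.12) within replicates 5 to 7. The interaction was 0.79 (standard error 0.22), with an unadjusted p of 0.00129 and an edgeR adjusted p of 0.508 over all genes. HFD-O304 vs HFD islets differed by 2.75 in replicates 1 to 4 and 2.06 in replicates 5 to 7, with an interaction of -0.69 (standard error 0.22, adjusted p = 0.84), and the interaction for HFD-O304 vs RD was 0.10 (standard error 0.21, adjusted p = 0.967). The adjusted threshold was passed by 0.00% of all genes for each of these interactions. At an unadjusted p under 0.05 edgeR counted 1862, 1314 and 1516 genes for HFD vs RD, HFD-O304 vs HFD and HFD-O304 vs RD, and DESeq2 called 8, 12 and 0. With no filter on low counts, edgeR put the library set difference (adjusted p = 9.38e-07, standard error 0.06) and the HFD vs RD interaction (adjusted p = 6.7e-07, standard error 0.13) past the threshold at the same size of effect. Library series and replicate number cannot be told apart here.

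To ask which other genes varied as Trpm5 did, every gene whose mean normalized count was 50 or more was ranked by its correlation with Trpm5 within diets. Among 13215 genes, the 5 highest were Fam151a (r = 0.94), Adora1 (0.90), Nnat (0.90), the gene T2 (0.89) and Cyp4f39 (0.89). Without subtraction of diet means, r was 0.99 for Fam151a, 0.87 for Adora1, 0.97 for Nnat, 0.91 for T2 and 0.85 for Cyp4f39. Adora1 encodes an adenosine receptor and Nnat an imprinted small membrane protein of neuronal and endocrine cells. Nnat changed between diets in the same order as Trpm5, with log2 fold changes of -0.84 for HFD vs RD, 1.83 for HFD-O304 vs RD and 2.66 for HFD-O304 vs HFD islets. Fam151a had -0.77, 0.71 and 1.48 in these comparisons.

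At the other end stood Serpina7 (r = -0.89), Ttr (-0.85), 5330417C22Rik (-0.85), Igsf5 (-0.84) and Golm1 (-0.84). Serpina7 encodes thyroxine-binding globulin and Ttr encodes transthyretin, both carriers of thyroid hormone in blood. Serpina7 ran opposite to Trpm5 also between diets, with 1.38 for HFD vs RD and -2.58 for HFD-O304 vs HFD islets on the log2 scale. After the library set was subtracted as well, r was 0.89 for Nnat, 0.87 for Fam151a, 0.81 for Adora1, 0.77 for T2 and 0.71 for Cyp4f39, and -0.78 for Serpina7, -0.72 for Igsf5, -0.62 for Golm1, -0.60 for 5330417C22Rik and -0.59 for Ttr. In the order from the highest r, Nnat and Fam151a were then at ranks 1 and 2, whereas T2 fell to rank 15 and Cyp4f39 to rank 53, and Ttr stood at rank 13102. These correlations are over 21 samples of 3 groups, which differed in library set and depth. With the mean of each diet alone subtracted, HFD samples weigh most in them.

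Markers of other islet cells moved with diet beside Trpm5. All 6 alpha cell markers passed in HFD-O304 vs HFD islets, higher, and 5 of 6 passed in HFD vs RD islets, lower, with 0 in HFD-O304 vs RD islets by edgeR (1 at an unadjusted p under 0.05, and 1 by DESeq2). Over all genes these shares were 11.9%, 3.54% and 1.31%. Their summed normalized count ranged from 802255 to 1023054 in RD, from 302698 to 624686 in HFD and from 838965 to 1127230 in HFD-O304 islets. The glucagon gene Gcg, for example, was at -1.01 for HFD vs RD and 1.21 for HFD-O304 vs HFD, but at 0.20 for HFD-O304 vs RD, where Trpm5 was at 1.23. Within diets, r with Trpm5 was between 0.18 and 0.58 for the alpha markers and, with library set subtracted, between 0.03 and 0.45.

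Of 5 delta and PP cell markers, 2 were lower for HFD vs RD (Sst, the somatostatin gene, at -0.66 and Rbp4 at -0.46) and 4 were higher for HFD-O304 vs HFD (Sst at 0.88 and Rbp4 at 0.78 among them), and their r with Trpm5 within diets ran from -0.09 to 0.54. Their summed normalized count ranged from 202685 to 326551 in RD, from 130701 to 264391 in HFD and from 204975 to 355332 in HFD-O304 islets. Of 6 mesenchyme markers, 2 passed for HFD vs RD, both higher, 2 for HFD-O304 vs RD, both lower, and 4 for HFD-O304 vs HFD, all lower, with Acta2, an actin of smooth muscle, at -1.73 and the pericyte marker Rgs5 at -1.15. Their sum ranged from 8716 to 12526 in RD, from 10910 to 19413 in HFD and from 5853 to 9645 in HFD-O304 islets. The mesenchyme markers that passed thus moved opposite to Trpm5, and r within diets ran from -0.59 to -0.10 for the 5 with a mean of 50 or more. Of 6 duct markers, 1 passed for HFD-O304 vs RD and 3 for HFD-O304 vs HFD, all higher. Over all genes these shares were 1.31% and 11.9%. Krt19 was at 1.05 and 1.15 there. Sox9 and Cftr were at 0.89 and 2.68 for HFD-O304 vs HFD, where 2 of the 6 were below 0. Cftr had a mean of only 11.3 normalized counts, with HFD-O304 samples from 7.12 to 81.2 and a median of 11.8. Of 6 endothelial markers 1 and 2 passed, and of 6 nerve and glia markers 1 and 1, all lower. Of 7 macrophage markers 1 passed, for HFD-O304 vs HFD, higher, and of 8 acinar markers 0. Acinar sums spread widely, from 2741 to 276400 in RD, from 414 to 214907 in HFD and from 162 to 90133 in HFD-O304 islets. Only a large acinar change was thus detectable. All 8 acinar markers were below 0 for HFD-O304 vs RD and for HFD-O304 vs HFD, with medians of -1.03 and -0.84. With library set subtracted, their r with Trpm5 ran from -0.45 to -0.40, and within diets alone from -0.22 to -0.12. For HFD vs RD no duct, endothelial, nerve and glia, macrophage or acinar marker passed by edgeR. In this order 2, 3, 1, 4 and 0 were at an unadjusted p under 0.05, and DESeq2 called 2, 1, 0, 1 and 0.

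Of 10 beta cell markers, 3 passed for HFD vs RD, Iapp at 0.41, Slc2a2 at -0.68 and Slc30a8 at -0.36. For HFD-O304 vs RD 0 passed by edgeR (3 at an unadjusted p under 0.05, and 0 by DESeq2). For HFD-O304 vs HFD 6 passed, Slc2a2, Slc30a8 and Ucn3 at 0.74, 0.53 and 0.52 and Iapp, Ins2 and Ins1 at -0.605, -0.23 and -0.20. Over all genes the shares were 3.54%, 1.31% and 11.9% in this order. Within diets 8 of 10 had a positive r with Trpm5, from 0.15 for Ins1 and 0.17 for Ins2 to 0.86 for Ucn3, while G6pc2 was at -0.15 and Iapp at -0.75. With library set subtracted, r ran from -0.42 for Iapp to 0.75 for Ucn3.

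Tuft cells, the chemosensory cells in which Trpm5 is best known outside of taste buds, were followed by 6 markers. Their factor Pou2f3 had at most 3.01 normalized counts in a sample, Gnat3 at most 9.71, and Gfi1b and Il25 had fewer than 10 read pairs over all samples. Dclk1, which other cells also express, was abundant and ran opposite to Trpm5, its mean normalized count being 429 in the RD group, 892 in the HFD group and 308 with O304. It was at 1.04 for HFD vs RD (adjusted p = 0.000426) and -1.51 for HFD-O304 vs HFD (adjusted p = 6.87e-07) on the log2 scale, and its r with Trpm5 within diets was -0.76. Avil, at a mean of 20.1 normalized counts, was at -0.28 for HFD vs RD and 1.36 for HFD-O304 vs HFD (adjusted p = 0.0091). Its means were 15.3 (RD), 12.7 (HFD) and 32.2 (HFD-O304). Gnat3 had means of 4.99, 2.87 and 7.60 in the same order. It was at -0.73 for HFD vs RD and 1.32 for HFD-O304 vs HFD (edgeR adjusted p = 0.0338), and did not pass. Avil and Gnat3 thus had the order of groups seen for Trpm5, at low counts and with overlap. Pou2f3 had its highest mean, 1.86, in HFD islets. The part of cell composition in the Trpm5 values was not tested.

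Of 21 other TRP channel genes, 18 had at least 10 read pairs in all and were tested. Of these, 9 had a mean under 10 normalized counts. The most abundant was Pkd2, the polycystin channel, at a mean of 3139, followed by the lysosomal channel gene Mcoln1 at 1105. For HFD vs RD 3 of 18 passed the threshold (1 higher and 2 lower), for HFD-O304 vs RD 0 of 18 (1 at an unadjusted p under 0.05, and 0 by DESeq2), and for HFD-O304 vs HFD 3 of 18 (2 higher and 1 lower), which over all genes was 3.54%, 1.31% and 11.9%. The median log2 fold change of the 18 genes was 0.16, -0.14 and -0.29, against 0.00, 0.01 and 0.03 over all genes tested.

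Mcoln3, which encodes a calcium channel of endosomes and lysosomes, changed in the direction of Trpm5. It held from 96.6 to 201 normalized counts in RD islets (median 177), from 35.4 to 153 in HFD islets (median 73.7) and from 159.9 to 276 in HFD-O304 islets (median 224). HFD samples overlapped with RD samples, and HFD-O304 samples lay above all HFD samples. On the log2 scale the difference came to -1.16 (standard error 0.23, adjusted p = 0.00188) for HFD vs RD, 1.55 (standard error 0.23, adjusted p = 1.41e-05) for HFD-O304 vs HFD and 0.39 (standard error 0.22, adjusted p = 0.435) for HFD-O304 vs RD islets.

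Trpc4, a subunit that can join with Trpc1, changed the opposite way. RD islets held from 294 to 397 normalized counts (median 326), HFD islets from 406 to 533 (median 431) and HFD-O304 islets from 248 to 375 (median 320.1), so that HFD samples lay above all others. It differed by 0.40 on the log2 scale (standard error 0.09, adjusted p = 0.00503) for HFD vs RD and -0.48 (standard error 0.09, adjusted p = 0.000243) for HFD-O304 vs HFD islets. Trpa1, the irritant receptor, fell by 0.77 on the log2 scale in HFD vs RD islets (standard error 0.18, adjusted p = 0.00742), from a median of 49.1 to a median of 28.0 normalized counts, with overlap. Trpc7 was higher in HFD-O304 than in HFD islets by 1.77 (standard error 0.48, adjusted p = 0.00831), at a mean of only 5.02 normalized counts and with overlap. This call was lost with a replicate block, with only the 2 groups compared, and in 12 of the 21 fits without 1 sample. Pkd2 and Mcoln1 had log2 fold changes between -0.19 and 0.12.

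The calls for HFD vs RD rested in part on single samples. Leaving out RD replicate 1, RD replicate 7, HFD replicate 1 or HFD replicate 3 left 1 of the 3 calls. Mcoln3 stayed past the threshold in all 21 fits without 1 sample in both comparisons with HFD islets, Trpc4 in 21 for HFD-O304 vs HFD and 16 for HFD vs RD, and Trpa1 in 11. Without HFD-O304 replicate 4 there were 5 calls for HFD-O304 vs HFD islets.

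**Figure D5:**
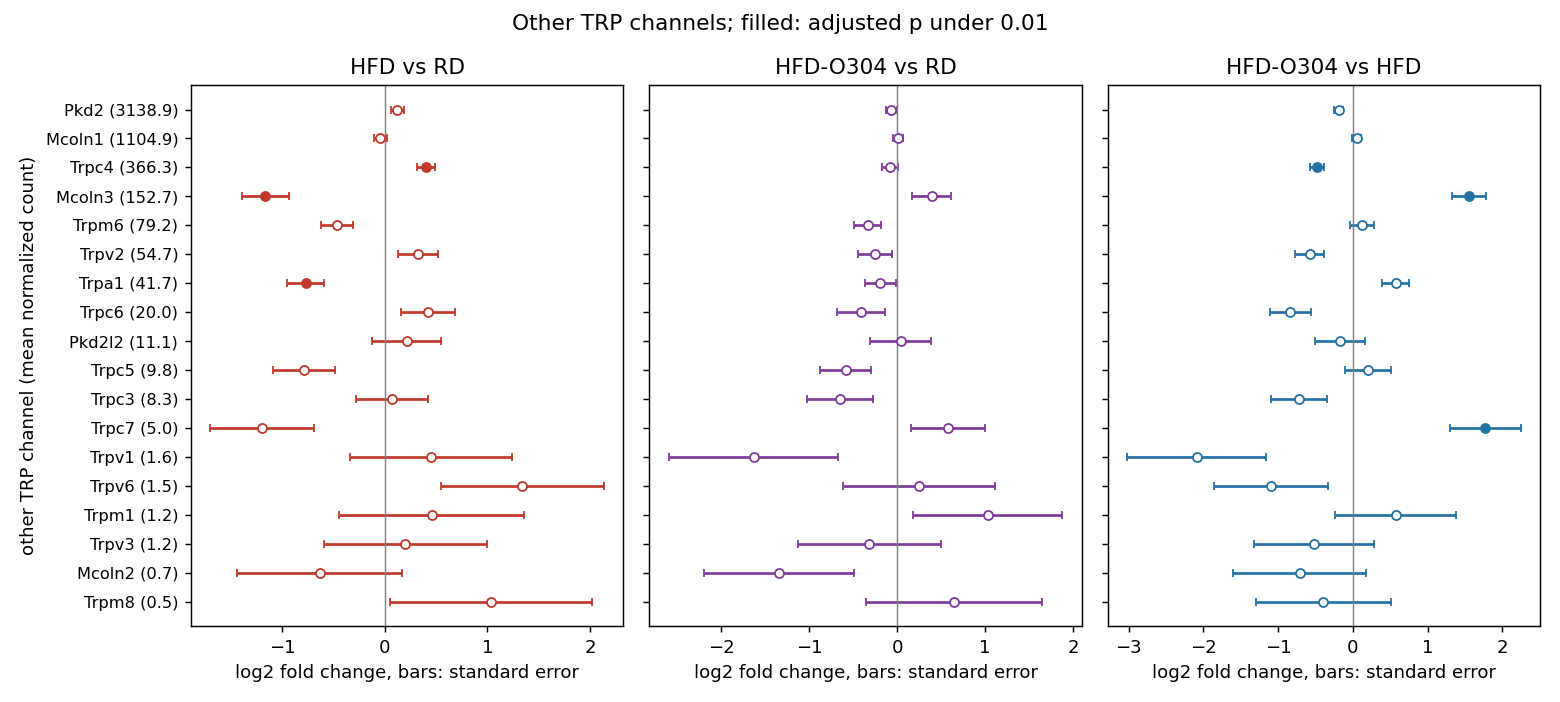
Log2 fold changes (points) with standard errors (bars) of the 18 other TRP channels tested, in HFD vs RD, HFD-O304 vs RD and HFD-O304 vs HFD islets, ordered by mean normalized count and filled where the adjusted p was under 0.01. Mcoln3 (-1.16 and 1.55) and Trpc4 (0.40 and -0.48) are filled in both comparisons with HFD islets, and Trpa1 and Trpc7 in 1 each.

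The genes around Trpm5 in the cell were then described from lists of named genes, each with its counts beside the shares of all genes, 3.54% for HFD vs RD, 1.31% for HFD-O304 vs RD and 11.9% for HFD-O304 vs HFD. These lists were drawn up with earlier results of these data known, so that their calls and adjusted p are a description. Of 27 genes of calcium release and the taste-type cascade, 3 passed for HFD vs RD (1 higher, 2 lower), 1 for HFD-O304 vs RD (lower) and 7 for HFD-O304 vs HFD (4 higher, 3 lower), and their median log2 fold change was -0.01, 0.01 and 0.03, against 0.00, 0.01 and 0.03 over all genes. Of the list, 6 genes had a mean under 10 normalized counts, the taste gene Gnat3 among them at 5.15. Itpr1 encodes an inositol trisphosphate receptor, which releases calcium from stores. It held from 3469 to 4666 normalized counts in RD, from 1791 to 3232 in HFD and from 4497 to 5608 in HFD-O304 islets, so that HFD samples lay below all others. It fell by 0.74 on the log2 scale in HFD vs RD islets (standard error 0.10, adjusted p = 7.44e-05) and was 0.99 higher in HFD-O304 than in HFD islets (standard error 0.10, adjusted p = 1.32e-07). Itpr3, a receptor gene of the same family, was at -0.26 and 0.31 in these comparisons and did not pass. Atp2a2, the calcium pump that refills the stores and the most abundant gene of the list, fell by 0.30 in HFD vs RD islets (adjusted p = 0.00153), and Ryr2, the ryanodine receptor, rose by 2.98 from a mean of 9.08 to a mean of 75.6 normalized counts, with HFD samples from 9.56 to 179.9 that overlapped with RD samples at 3.29 to 16.4. In HFD-O304 vs HFD islets Ryr2 fell by 3.97 on the log2 scale (standard error 0.52, adjusted p = 3.24e-06), also with overlap. Ahead of the store, the G protein subunit gene Gna14 was at -0.97 for HFD-O304 vs RD, and for HFD-O304 vs HFD islets Gna14, the phospholipase gene Plcb4 and the store-operated channel gene Orai2 were at -1.52, 0.35 and -0.45.

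Incretin and cAMP signalling, which acts on TRP currents of beta cells, gave 2 of 24 genes for HFD vs RD (both lower), 2 for HFD-O304 vs RD (both higher) and 7 for HFD-O304 vs HFD (6 higher, 1 lower), and the log2 fold changes had medians of -0.02, 0.09 and 0.12. Pde1c, a calcium-activated phosphodiesterase, had the order of groups seen for Trpm5, with 534 to 671 normalized counts in RD, 275 to 453 in HFD and 690.1 to 1098 in HFD-O304 islets and no overlap between any groups. Its log2 fold changes were -0.63, 0.64 and 1.27, where those of Trpm5 were -1.18, 1.23 and 2.40. In HFD-O304 vs HFD islets the incretin receptor genes Glp1r and Gipr were at 0.58 and 0.81, Gnai1 at 0.80 and Pde4d at -0.44, and Adcy1 was at 1.11 for HFD-O304 vs RD, all past the threshold, whereas the most abundant gene, Gnas, at 0.11, did not pass for HFD-O304 vs HFD.

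Of 25 channels of beta cell excitability, 3 passed for HFD vs RD (all lower), 1 for HFD-O304 vs RD (lower) and 11 for HFD-O304 vs HFD (7 higher, 4 lower), with a median of -0.16, 0.00 and 0.20. Kcnk3, a background potassium channel, and Cacna1h, a T-type calcium channel, fell by 0.43 and 0.62 in HFD vs RD islets, where Trpm5 was at -1.18. Without HFD replicate 4 there was 1 call for HFD vs RD and without HFD replicate 7 there were 5. For HFD-O304 vs HFD islets Kcnk3, Cacna1h, Cacna2d1, Scn9a, Ano1 and Kcnk16 passed at 0.62, 0.64, 0.44, 0.56, -0.55 and -0.28, and Abcc8, the most abundant, at 0.10, did not.

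For the ligand of Trpm2, 16 genes of ADP-ribose and NAD metabolism were listed. Of these, 0 passed for HFD vs RD and 0 for HFD-O304 vs RD by edgeR, 5 being under an unadjusted p of 0.05 in each, and DESeq2 called 2 and 0. For HFD-O304 vs HFD 6 passed, Nampt and Macrod2 at 0.38 and 0.34 and Bst1, Parp3, Nudt9 and Nmnat3 at -1.42, -0.54, -0.27 and -0.28, while Parp1, the most abundant, was at -0.19 and did not pass, and the median of the list was 0.03, -0.01 and -0.16 in the 3 comparisons. Leaving out 1 sample gave 2 to 5 calls in this list, with 2 without HFD replicate 3 or HFD-O304 replicate 1 and 3 without HFD-O304 replicate 2. Nampt and Bst1 passed in all 21 such fits and Nmnat3 in 2. Trpm2 itself was at 0.93 for HFD-O304 vs HFD, which as a value of a member is a description and no test.

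Beside Trpm7, 14 genes of magnesium transport were listed, of which 0 passed for HFD vs RD by edgeR (4 at an unadjusted p under 0.05, and 1 by DESeq2), 2 for HFD-O304 vs RD (both lower) and 4 for HFD-O304 vs HFD (1 higher, 3 lower), with a median of 0.03, -0.13 and -0.20. Slc41a3 and Nipal3 were at -1.004 and -0.28 for HFD-O304 vs RD (past the threshold in 21 and 11 of the 21 fits without 1 sample), and for HFD-O304 vs HFD islets Cnnm3 was at 0.32 and Cnnm4, Mrs2 and Magt1, the last being the most abundant, at -0.43, -0.19 and -0.33. Trpm7 was at -0.01 and 0.11 in these comparisons.

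Trpm5 lies in the imprinted region of chromosome 7 around Kcnq1. Of 13 genes there (median log2 fold change 0.09, 0.05 and -0.05), 1 passed for HFD vs RD (higher), 1 for HFD-O304 vs RD (lower) and 3 for HFD-O304 vs HFD (all lower). Cd81, which ends 1.2 kb from Trpm5, was at -0.41 (standard error 0.06, adjusted p = 3.33e-05) for HFD-O304 vs RD and -0.46 for HFD-O304 vs HFD islets. Tssc4, which overlaps the end of Trpm5 on the other strand, was at -0.37 (standard error 0.07, adjusted p = 0.000512) for HFD-O304 vs HFD, and Tnfrsf23 was at 0.87 for HFD vs RD and -1.13 for HFD-O304 vs HFD islets. Kcnq1, 11.7 kb from Trpm5, held from 86.2 to 151 normalized counts over all samples and did not pass. Cdkn1c, an inhibitor of the cell cycle, had the direction of Trpm5 in both comparisons with HFD islets without passing, at -0.57 for HFD vs RD (adjusted p = 0.0971) and 0.63 for HFD-O304 vs HFD (adjusted p = 0.0329). On the strand opposite to Trpm5, from 49 to 265 read pairs per sample were counted at its locus, and at the other members 14 at most. Counted without regard to strand, Trpm5 kept from 96.9 to 98.8% of its read pairs, and its log2 fold change was -1.17, 1.23 and 2.40.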

How the data were processed

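Islet RNA of 7 samples per group was sequenced as pairs of 50-base reads. The authors aligned them with STAR to GRCm38 (Ensembl 96 per their methods) and deposited the resulting count for every gene without normalization, in which a unit is a read pair and which leaves out pairs matching several places or several genes. The count on the strand that held 28.8 to 36.3 times the count of the other was used. Genes with at least 10 read pairs in all (27229) were tested with edgeR 4.0.16 in R 4.3.3 (TMM, quasi-likelihood fit of all 21 samples, no covariates, Benjamini-Hochberg adjusted p under 0.01). DESeq2 1.42.0 was the alternative test and gave the size factors of the normalized counts. Symbols, lengths and coordinates came from GENCODE vM21 on GRCm38, to which all 55536 identifiers matched, and upstream sequences from RefSeq. Per-length levels and correlations used Python 3.11.15. The scripts were tested on simulated data.

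The members and lists were chosen with earlier results of these data known. Named genes were the 7 members, in each list up to 6 genes past the threshold in any comparison by smallest adjusted p and the gene with the highest mean, and the 5 highest and 5 lowest correlations with Trpm5. Nothing says that samples of a group are separate beyond the pools of mice, and p-values measure the spread between pools. Alternatives covered the test, normalization, filter, strand, samples fitted, replicate block, library set, threshold, gene length, correlation and each sample left out. A correlation with library set subtracted was added after seeing the data. ChIP-seq was not analysed here.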

Additional observations from a re-analysis of the deposited data

Results flagged for a closer look

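In 36 groups of 7 samples (7 members and 5 other TRP channels, 3 diets each), 3 held a sample far from the others by Dixon's criterion, where chance gives about 1 in 20. Trpm2 was at 137 normalized counts in RD replicate 2, below the next sample at 182. Trpm7 was at 2356 in HFD-O304 replicate 2, the shallowest sample, above the next at 2011. Trpc7 was at 11.3 in RD replicate 5, above the next at 6.41, values of a few read pairs. Without RD replicate 2, the log2 fold change of Trpm2 was -0.47 for HFD vs RD and 0.46 for HFD-O304 vs RD islets. With genes of at least 10 read pairs tested, none of the interactions of diet and library set of these 12 genes passed an adjusted p of 0.05 in edgeR, and with no filter that of Trpm5 for HFD vs RD did (adjusted p = 6.7e-07).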

How the results depend on the processing

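The log2 fold changes of Trpm5 kept their direction under all alternatives. Leaving out each sample in turn gave -1.32 to -1.06 for HFD vs RD, 1.18 to 1.29 for HFD-O304 vs RD and 2.30 to 2.55 for HFD-O304 vs HFD, and only the library set moved 1 of them beyond the spread between replicates, HFD vs RD, to -1.58 in replicates 1 to 4 and -0.79 in replicates 5 to 7. Of 558 values of the other members, 557 moved by less than that spread, the exception being Trpc1 for HFD-O304 vs RD (-0.05 in replicates 5 to 7). For other TRP channels, HFD vs RD gave 1 call in replicates 1 to 4, 0 in replicates 5 to 7 and 1 to 3 with a sample left out. HFD-O304 vs HFD gave 1 in replicates 5 to 7, 7 at an adjusted p under 0.05 and 2 to 5 with a sample left out, and HFD-O304 vs RD gave 0 throughout. Over the genes of the pathway lists, 9, 7 and 38 passed for HFD vs RD, HFD-O304 vs RD and HFD-O304 vs HFD. For HFD vs RD these were 17 with DESeq2, 16 with library set as a covariate, 5 in replicates 5 to 7, 22 at an adjusted p under 0.05 and 7 to 14 with a sample left out (14 without HFD replicate 7). For HFD-O304 vs RD they were 11 with DESeq2, 1 in replicates 1 to 4, 11 at an adjusted p under 0.05 and 5 to 9 with a sample left out. For HFD-O304 vs HFD they were 23 in replicates 1 to 4, 19 in replicates 5 to 7 and 30 to 41 with a sample left out. The difference of Trpm5 between library set was 0.31 to 0.42 with a sample left out (adjusted p from 0.015 to 0.0793). It passed at 0.38 with DESeq2 and at 0.38 with no filter, and its HFD vs RD interaction, 0.65 to 0.96 with a sample left out (adjusted p from 0.233 to 0.854), passed at 0.78 with no filter. With no filter, 1577 genes passed for library set and 209, 93 and 86 for the interactions, against 768, 0, 0 and 0. The cause was not tested.

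The main fit did not pair samples by replicate number. Same-numbered samples deviated together in part, at a mean correlation of 0.20 for HFD vs RD, 0.29 for HFD-O304 vs RD and 0.14 for HFD-O304 vs HFD. They had a correlation of deviations over 0.1 in 4 of 7 pairs for HFD vs RD, 6 for HFD-O304 vs RD and 5 for HFD-O304 vs HFD, and 3, 2 and 2 correlated best with their own number. In replicates 5 to 7, whose libraries are numbered in threes across diets, the correlation was 0.05 to 0.64 for HFD vs RD, 0.21 to 0.33 for HFD-O304 vs RD and 0.29 to 0.51 for HFD-O304 vs HFD. With the replicate block, Trpm5 had -1.21, 1.23 and 2.44, other TRP channels had 3, 0 and 2 calls, and 16 pathway genes passed for HFD vs RD. Over all genes, 963, 356 and 3230 calls became 1577, 543 and 3763 with the block, 1611, 543 and 3795 with library set as a covariate, 1758, 727 and 4045 with DESeq2, 635, 482 and 2845 with only the groups compared, 587, 88 and 1994 in replicates 1 to 4 and 486, 290 and 1577 in replicates 5 to 7. With Spearman's rho, Nnat and Fam151a stayed among the 5 genes most like Trpm5, and T2 was at rank 48. Depth limits Trpv4 and the 9 other TRP channels under 10 normalized counts.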
